A study of Mus musculus with 24 samples.

Results

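EGFP+ alveolar macrophages sorted 14 days after bleomycin were compared with EGFP+ alveolar macrophages sorted 7 days after PBS. The comparison used 6 of the 24 libraries of the series, 3 in each group. Genes were kept where they lay on an autosome and had the same chromosome, start, end and strand in both deposited count tables, which left 40395 of the 49022 genes that the tables share, and 11868 of these had enough counts to be tested. The other 28527 fell below the low-count filter.

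Both groups came from Spp1-EGFP knock-in reporter mice, in which a fluorescent protein reports the gene for osteopontin, and both were sorted from lung as CD11b- SiglecF+ EGFP+ cells. The day 14 mice had received bleomycin at 3 μg per g body weight into the trachea, and the control mice had received PBS. Bleomycin is a DNA-damaging drug that injures the lung epithelium and is followed by inflammation and scarring. The labels give no zygosity, age or sex, and no statement that the 3 libraries of a group came from separate mice, so the p-values below measure only the spread between these libraries. The reporter gate was applied in both groups, so control cells were EGFP+ too. The day 14 columns stand in one table and the PBS columns in the other, so table, day and treatment cannot be told apart.

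Alveolar macrophages live in the air spaces, where they clear surfactant, debris and microbes. In the undisturbed lung they renew themselves locally and carry SiglecF, with little CD11b (the product of Itgam), and after injury monocytes that enter the air space can take on the same surface markers. Their identity genes depend on the cytokine GM-CSF and on the lipid-sensing factor PPARγ.

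Both groups held transcripts of the gate's positive marker and few of its negative one. Siglecf, the gate's own lectin, was measured at 403, 385 and 379 CPM after PBS and 116, 138 and 137 CPM at day 14, where CPM is the count per library size, scaled between libraries by trimmed mean of M values. All 3 day 14 libraries lay below all 3 PBS libraries, with a log2 fold change of -1.57 (SE 0.0810) and an adjusted p = 6.75e-11. Transcripts of Itgam were low in all 6 libraries, at 8.26, 6.59 and 11 CPM after PBS and 10.1, 5.87 and 7.43 CPM at day 14, and the groups overlapped (log2 fold change -0.13, adjusted p = 0.635). On the scale of CPM of all counts, the EGFP+ interstitial macrophages sorted as CD11b+ at day 14 held 225 CPM of Itgam and 7.45 CPM of Siglecf, against 7.35 and 123 CPM in the day 14 alveolar macrophages.

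Library totals ran from 18227184 to 24580620 counts after PBS and from 13450053 to 15444664 at day 14. Between 20904 and 21760 genes had a count in the PBS libraries and between 17771 and 18008 at day 14. Over all 24 libraries, some of them from interstitial macrophages of wild-type mice, this number split by table, whatever the cell type. It was at least 20488 in the table with the PBS samples and at most 19294 in the other. The 10 most abundant genes took 8.13% to 8.29% of the PBS counts and 11.5% to 12.29% of the day 14 counts. Xist, expressed from the inactive X chromosome of female cells, stood at 328 ± 28.7 CPM after PBS and had 0 counts at day 14, while the Y-linked Ddx3y was present in both groups (74.9 ± 0.987 and 117 ± 10.7 CPM), so transcripts that mark sex moved with the groups. Of the 6423 genes called below, 825 (12.8%) also separated all 9 libraries of the table with the day 14 samples from all 15 libraries of the other table in the same direction, whatever the cell type, which is named below as separating the tables. By direction, they were 175 of the 3085 genes called higher (5.67%) and 650 of the 3338 called lower (19.5%). A gene whose level varies between cell types can fail to separate the tables and still differ between them. The part of sex, day and table in the differences was not tested. All errors below are SD over n = 3 libraries, adjusted p-values come from edgeR's quasi-likelihood test with Benjamini-Hochberg adjustment over all genes tested, and a gene is called at an adjusted p under 0.05.

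Genes called different outnumbered those that were not. Of 11868 genes, 6423 were called (54.1%), 3085 of them higher at day 14 (26.0%) and 3338 lower (28.1%). At least 2-fold differences were called for 768 higher genes (6.47%) and 1420 lower genes (12.0%). In 7351 genes (61.9%) the 3 libraries of one group did not overlap the 3 of the other. The median log2 fold change over all genes tested was -0.03, and every list count below is read against these shares. Within a group, libraries correlated at 0.994 to 0.997 after PBS and 0.974 to 0.985 at day 14 (Pearson, log2 CPM). The correlations ran only across the genes of highest mean level, which are not independent replicates.

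**Figure D1:**
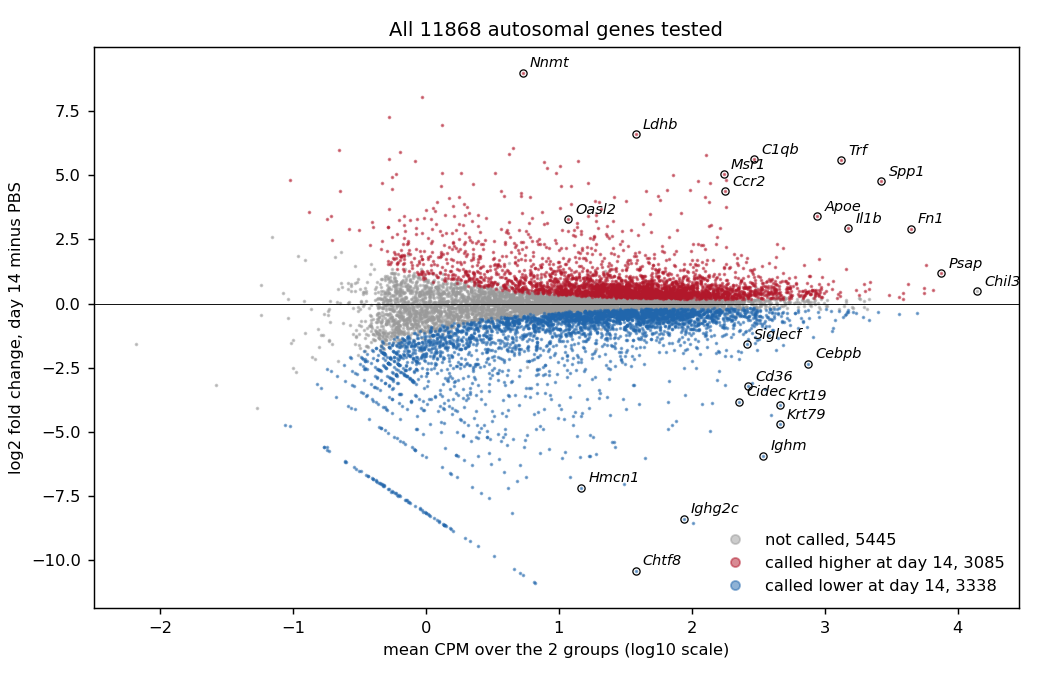
Log2 fold change (day 14 minus PBS) of each autosomal gene tested against its mean CPM over both groups on a log10 axis, 1 point per gene, coloured by call. Of 11868 genes, 3085 were called higher and 3338 lower, and circles mark the genes with a name in the plot; the diagonal lines of points at low level are genes with 0 or very few day 14 counts.

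**Figure D2:**
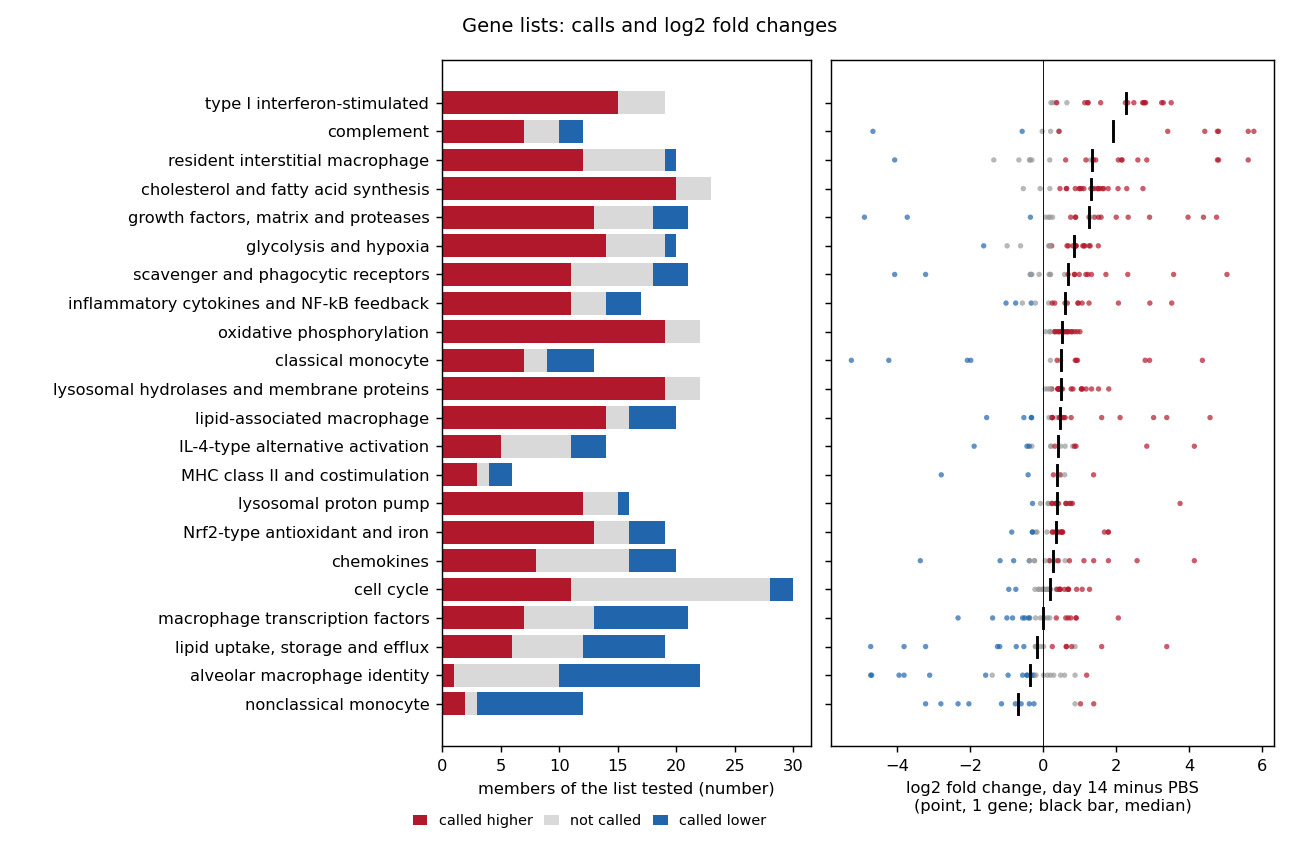
Left, number of tested genes called higher, not called or called lower in each of 22 gene lists. Right, log2 fold change of each gene (points) with the list median (black bar): interferon-stimulated genes have the highest median, 2.26, and nonclassical monocyte genes the lowest, -0.68.

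Alveolar macrophage identity genes split into genes that fell many-fold and genes whose levels were not called. Of 22 tested, 12 were called lower, 1 higher and 9 neither, with a median log2 fold change of -0.37. The number called higher was 2 without day 14 replicate 1 or 2 and 3 without day 14 replicate 3. Krt79, a keratin gene (chr15:101929332-101940324, build GRCm38 as in the files), was measured at 889, 881 and 869 CPM after PBS and 28.3, 37.5 and 35.7 CPM at day 14. That was the largest fall in level among identity genes, and no library of one group came near the other (fitted log2 fold change -4.70, SE 0.11, adjusted p = 3.66e-15). Krt19, another keratin gene, went from 867 ± 32.6 to 56.1 ± 6.13 CPM (fitted log2 fold change -3.95, SE 0.09, adjusted p = 3.7e-15). Cidec, which helps to build large lipid droplets, was at 429, 428 and 404 CPM after PBS and 34, 33.2 and 22.6 CPM at day 14 (fitted log2 fold change -3.81, SE 0.12, adjusted p = 2.86e-13). Fabp1, a fatty acid carrier, fell from 136 ± 10.8 to 5.19 ± 2.32 CPM (log2 fold change -4.73, adjusted p = 2.63e-09). Ear1, an eosinophil-associated ribonuclease gene that overlaps a gene with changed coordinates and has near-identical relatives between which reads can be split, fell from 504 ± 28.5 to 58.4 ± 11.8 CPM (log2 fold change -3.11, adjusted p = 2.09e-12). At day 30, in libraries of the same table as day 14, Krt79 stood at 63.5 ± 5.79 CPM and Krt19 at 163 ± 9.07 CPM.

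Other identity genes were not called, or differed by less. Pparg, which encodes PPARγ, was at 181, 168 and 181 CPM after PBS and 176, 183 and 176 CPM at day 14, the closest match in this list (log2 fold change 0.01, adjusted p = 0.894). Mrc1, the mannose receptor, was at 1676 ± 21.7 CPM after PBS and 1932 ± 696 CPM at day 14 and was not called (adjusted p = 0.471), though it was called higher without day 14 replicate 3. Chil3, a chitinase-like protein gene and one of the most abundant transcripts, was at 12589, 11415 and 10982 CPM after PBS and 22893, 12306 and 13576 CPM at day 14. The first day 14 library stood above the rest and the groups overlapped (log2 fold change 0.48, adjusted p = 0.0897), though Chil3 was called higher without day 14 replicate 2. Itgax, the CD11c chain, fell from 1625 ± 77.4 to 1197 ± 274 CPM (log2 fold change -0.44, adjusted p = 0.0104), a call lost when all 24 libraries entered the fit. Car4, a carbonic anhydrase gene, was the exception in direction: it was at 294, 285 and 300.1 CPM after PBS and 769, 570.4 and 672 CPM at day 14, and every day 14 library was higher (fitted log2 fold change 1.19, SE 0.09, adjusted p = 1.13e-08).

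**Figure D3:**
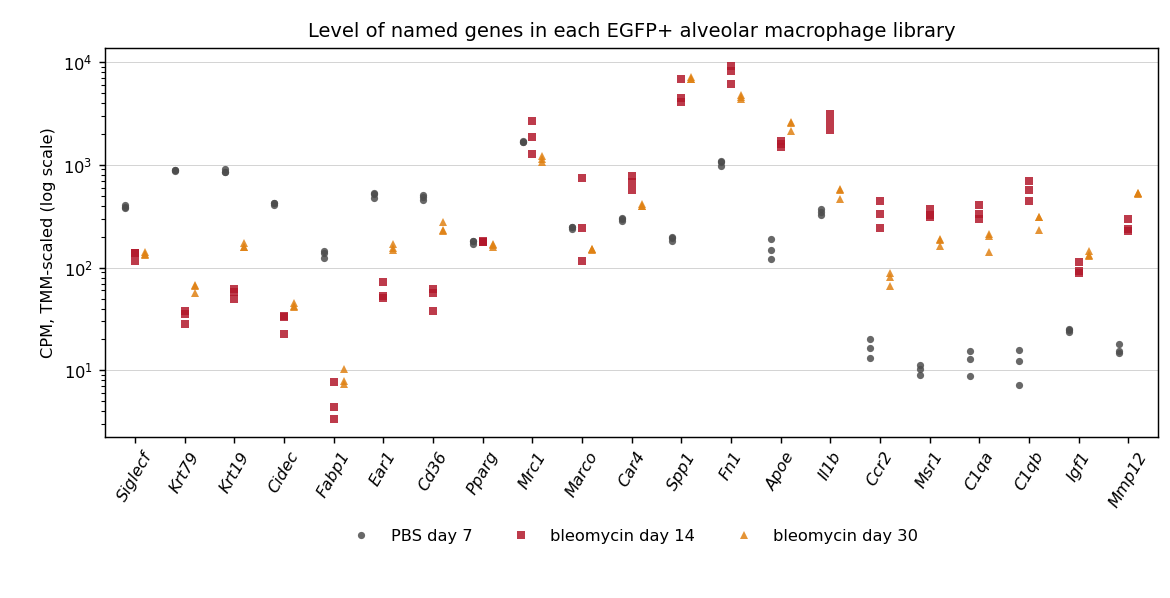
TMM-scaled CPM (log axis) of 21 named genes in each EGFP+ alveolar macrophage library; circles are PBS day 7, squares bleomycin day 14 and triangles bleomycin day 30, 3 libraries each. Krt79, Krt19, Cidec, Fabp1, Ear1 and Cd36 are lower at day 14 in every library, Pparg overlaps, and Spp1, Fn1, Apoe, Il1b, Ccr2, Msr1 and the complement genes are higher in every library.

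Spp1, the reporter gene and the source of osteopontin, a secreted matrix and signalling protein, was 27-fold higher at day 14. It was measured at 197, 179 and 192 CPM after PBS and 6842, 4474 and 4048 CPM at day 14. The lowest day 14 library was above the highest PBS library by more than 20-fold (fitted log2 fold change 4.76, SE 0.18, adjusted p = 2.03e-09; chr5:104435118-104441050). Among 21 tested genes for growth factors, matrix proteins and proteases, 13 were called higher and 3 lower, with a median of 1.26. Fn1, fibronectin, was at 1055, 1075 and 968 CPM after PBS and 6061, 8148 and 9218 CPM at day 14. The groups were apart and Fn1 had among the highest levels of any transcript at day 14 (fitted log2 fold change 2.92, SE 0.12, adjusted p = 3.79e-11). Igf1, an insulin-like growth factor, rose from 24.5 ± 0.935 to 98.4 ± 13.5 CPM (log2 fold change 2.0, adjusted p = 3.79e-11). Pdgfa, a mitogen for fibroblasts, rose from 0.331 ± 0.0704 to 6.99 ± 1.32 CPM (log2 fold change 4.40, adjusted p = 9.44e-10). Areg, an epidermal growth factor receptor ligand, rose from 33.6 ± 0.543 to 169 ± 24 CPM (log2 fold change 2.33, adjusted p = 2.67e-11), and was at 32.1 ± 4.64 CPM at day 30, near its PBS level.

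Proteases and their inhibitors moved in both directions. Mmp12, the macrophage elastase, rose from 16.2 ± 1.80 to 254 ± 39.6 CPM (fitted log2 fold change 3.97, SE 0.11, adjusted p = 3.97e-14). Timp2, an inhibitor of such proteases, rose from 96 ± 0.941 to 255 ± 20.9 CPM (log2 fold change 1.41, adjusted p = 1.91e-10). Mmp9, a gelatinase that neutrophils store in granules, fell from 7.56 ± 2.60 to 0.246 ± 0.0548 CPM (log2 fold change -4.90, adjusted p = 1.97e-08), beside a fall of other neutrophil genes given below. Col4a1, a basement membrane collagen chain, fell from 30.1 ± 2.84 to 2.27 ± 0.750 CPM (log2 fold change -3.73, adjusted p = 2.29e-11). Tgfb1 was slightly lower, at 448 ± 27.1 CPM after PBS and 352 ± 50.9 CPM at day 14 (log2 fold change -0.35, adjusted p = 0.00543). 

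Complement genes included some of the largest rises. Of 12 tested, 7 were called higher and 2 lower, with a median of 1.93. C1qa, C1qb and C1qc encode the 3 chains of C1q, which starts the classical complement pathway, and they lie next to each other on the minus strand of chromosome 4 (chr4:136880129-136886187, chr4:136889804-136893065 and chr4:136895917-136898803). C1qb was at 12.3, 7.24 and 15.6 CPM after PBS and 695, 448 and 572 CPM at day 14 (fitted log2 fold change 5.62, SE 0.33, adjusted p = 4.37e-06). C1qa was at 12.9, 8.88 and 15.5 CPM after PBS and 410.4, 299 and 330.4 CPM at day 14 (fitted log2 fold change 4.81, SE 0.25, adjusted p = 4.01e-07). C1qc was at 7.07, 6.67 and 9.95 CPM after PBS and 281, 166 and 198 CPM at day 14 (log2 fold change 4.78, adjusted p = 5.11e-07). The 3 chains rose by similar factors and no libraries overlapped. C4b, which acts just after C1, rose from 4.58 ± 0.222 to 252 ± 58.4 CPM (log2 fold change 5.78, adjusted p = 1.35e-11), but it also separates the tables. C3ar1, the receptor for the C3a fragment, rose from 2.92 ± 1.28 to 30.5 ± 3.38 CPM (log2 fold change 3.42, adjusted p = 3.07e-08). C3 itself was at 233 ± 10.2 CPM after PBS and 268 ± 74.2 CPM at day 14 and was not called (log2 fold change 0.20, adjusted p = 0.3), although without day 14 replicate 1 it was called higher. C5ar1, the receptor for C5a, fell from 315 ± 16.2 to 212 ± 11.2 CPM (log2 fold change -0.57, adjusted p = 4.92e-06).

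C1q genes are also used as markers of resident interstitial macrophages, and the other markers of those cells did not move as one. Of 20 tested, 12 were called higher and 1 lower (3 lower without day 14 replicate 1), with a median of 1.34. The summed level of the list went from 104 to 167 CPM after PBS to 1219.5 to 1755 CPM at day 14. C1qa, C1qb and C1qc make up most of the day 14 sum. The defining surface markers Folr2, Lyve1 and Cd163 were at 0.338, 0.247 and 2.15 CPM at day 14, with 0.555, 0.637 and 2.67 CPM after PBS, and none was called, although Folr2 was called lower without day 14 replicate 1. In interstitial macrophages of day 14, on the scale of CPM of all counts, C1qa reached 2501 CPM and Folr2 61.7 CPM, against 326 and 0.319 CPM in the alveolar gate. Ms4a7, a membrane protein of monocyte-derived macrophages, rose from 4.16 ± 0.657 to 18.3 ± 1.57 CPM (log2 fold change 2.15, adjusted p = 7.96e-09). Cx3cr1, the fractalkine receptor, rose from 5.52 ± 2.30 to 24.4 ± 5.21 CPM (log2 fold change 2.17, adjusted p = 2.04e-05).

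Receptors for scavenging and for antibody were higher more often than lower. Of 21 tested, 11 were called higher and 3 lower, with a median of 0.69. Msr1, scavenger receptor A, was at 10.4, 9.03 and 11.4 CPM after PBS and 374, 312 and 326 CPM at day 14, apart in every library (fitted log2 fold change 5.04, SE 0.11, adjusted p = 2.67e-15). Fcgr2b, the inhibitory receptor for IgG, rose from 147 ± 7.11 to 734 ± 85 CPM (fitted log2 fold change 2.32, SE 0.09, adjusted p = 2.59e-12). Its activating counterparts Fcgr1 and Fcgr3 also rose, by 1.33 and 0.86 on the log2 scale (adjusted p = 3.27e-09 and 2.83e-07). Scarb1, the receptor for high-density lipoprotein, rose from 125 ± 1.42 to 293 ± 24 CPM (log2 fold change 1.23, adjusted p = 8.95e-10). Mfge8, which bridges dying cells to phagocytes, rose from 31.5 ± 1.08 to 104 ± 8.83 CPM (log2 fold change 1.72, adjusted p = 2.3e-11). Cd36, which takes up oxidised lipid and fatty acids, was at 489, 450.4 and 503 CPM after PBS and 56, 61.2 and 37.5 CPM at day 14. Every day 14 library was below every PBS library (fitted log2 fold change -3.22, SE 0.15, adjusted p = 2.43e-09), and Cd36 was at 245 ± 29.2 CPM at day 30. Axl, a receptor for dying cells, was at 1726 ± 107 CPM after PBS and 1971 ± 412 CPM at day 14 and was not called (log2 fold change 0.19, adjusted p = 0.183), although it was called higher without day 14 replicate 1.

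Classical monocyte genes went in opposite directions. Of 13 tested, 7 were called higher and 4 lower, with a median of 0.48. Ccr2, the chemokine receptor through which monocytes leave the bone marrow and enter tissue, was at 16.5, 13.2 and 20 CPM after PBS and 242, 335 and 444 CPM at day 14, so that the lowest day 14 library was more than 10 times the highest PBS library (fitted log2 fold change 4.37, SE 0.27, adjusted p = 2.9e-06). Ly6c2, the antigen by which classical monocytes are sorted, fell from 14.7 ± 3.92 to 3.67 ± 2.11 CPM (log2 fold change -1.98, adjusted p = 0.000176). Plac8 fell from 25 ± 10.6 to 1.30 ± 0.839 CPM (log2 fold change -4.23, adjusted p = 9.44e-05). Hp, haptoglobin, rose from 12.6 ± 4.2 to 86.7 ± 23 CPM (log2 fold change 2.80, adjusted p = 3.71e-05). Nonclassical monocyte genes were mostly lower, 9 of 12 with 2 higher and a median of -0.68; Cd300e fell from 18.4 ± 2.75 to 4.46 ± 0.850 CPM (log2 fold change -2.03, adjusted p = 4.34e-08). Treml4 fell from 32.7 ± 0.997 to 14.8 ± 3.55 CPM (log2 fold change -1.14, adjusted p = 2.28e-06).

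Inflammatory mediators rose in part. Of 17 genes for cytokines and feedback regulators of NF-kB, 11 were called higher and 3 lower (5 lower without day 14 replicate 2), with a median of 0.60. Il1b, interleukin-1β, was at 351, 321 and 367 CPM after PBS and 2181, 2606 and 3114 CPM at day 14 (fitted log2 fold change 2.93, SE 0.12, adjusted p = 3.14e-11). Every day 14 library was above every PBS library, and the day 30 libraries stood at 536 ± 59.5 CPM. Il1rn, the antagonist of the same receptor, rose from 272 ± 7.61 to 529 ± 45.1 CPM (log2 fold change 0.96, adjusted p = 1.97e-08). Ptgs2, the inducible cyclooxygenase, rose from 13.2 ± 1.85 to 151 ± 34.2 CPM (log2 fold change 3.53, adjusted p = 1.67e-08). Ptgs1, its constitutive relative, was at 4.90, 4.50 and 3.38 CPM after PBS and 139, 128 and 151 CPM at day 14 (fitted log2 fold change 5.01, SE 0.12, adjusted p = 3.7e-15), and it also separates the tables. Il6 rose from 36.9 ± 4.29 to 88.1 ± 5.83 CPM (log2 fold change 1.26, adjusted p = 1.15e-08). Socs3, a brake on signalling by the interleukin-6 family, rose from 37.9 ± 5.68 to 158 ± 15.3 CPM (log2 fold change 2.06, adjusted p = 4.2e-11). Osm, oncostatin M, a member of that family, rose from 188 ± 8.07 to 567 ± 66.1 CPM (log2 fold change 1.59, adjusted p = 2.09e-09). Tnf went the other way, from 148 ± 3.46 to 73.4 ± 2.48 CPM (log2 fold change -1.02, adjusted p = 2.07e-08), and it also separates the tables.

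Among 20 chemokine genes 8 were called higher and 4 lower, with a median of 0.26. Ccl17, a ligand of CCR4, was at 2.92, 1.91 and 3.64 CPM after PBS and 65, 56 and 27 CPM at day 14, all day 14 libraries higher but with a wide spread (fitted log2 fold change 4.15, SE 0.39, adjusted p = 3.66e-05). Cxcl16, the ligand of CXCR6, rose from 19.5 ± 2.22 to 116 ± 10.7 CPM (fitted log2 fold change 2.58, SE 0.10, adjusted p = 1.48e-12). Ccl9 rose from 116 ± 15.7 to 402 ± 23.4 CPM (log2 fold change 1.79, adjusted p = 6.57e-11) and the neutrophil attractant Cxcl1 rose from 85.2 ± 6.33 to 185 ± 19.2 CPM (log2 fold change 1.12, adjusted p = 1.81e-08). Ccl2, the main ligand of CCR2, was at 3.98 ± 1.30 CPM after PBS and 4.94 ± 1.89 CPM at day 14 and was not called (log2 fold change 0.33, adjusted p = 0.293). Ccl5 fell from 15.8 ± 2.84 to 6.94 ± 0.995 CPM (log2 fold change -1.18, adjusted p = 7.53e-06).

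Lipid genes moved in both directions. Among 19 genes for uptake, storage and efflux, 6 were called higher and 7 lower, with a median of -0.18. Over all genes tested, 26.0% were called higher and 28.1% lower. Besides Cidec, Fabp1 and Cd36, the storage and export genes Plin2, a lipid droplet coat protein, and Abca1, a cholesterol exporter, were lower, from 1611 ± 15.1 to 1118 ± 279.6 CPM (log2 fold change -0.53, adjusted p = 0.00255) and from 282 ± 14.1 to 124 ± 24.6 CPM (log2 fold change -1.19, adjusted p = 2.99e-06). Apoe, which carries lipid out of macrophages, was at 149, 121 and 189 CPM after PBS and 1497, 1607 and 1703 CPM at day 14, higher in every day 14 library (fitted log2 fold change 3.39, SE 0.15, adjusted p = 6.43e-10). Lpl, lipoprotein lipase, was slightly higher, 3299 ± 141 CPM after PBS and 3928 ± 316 CPM at day 14 (log2 fold change 0.25, adjusted p = 0.00858). Genes that mark lipid-associated macrophages in other tissues were called higher in 14 of 20 cases and lower in 4, with a median of 0.46. Trem2, a lipid-sensing receptor, rose from 47.1 ± 2.21 to 203 ± 15.4 CPM (fitted log2 fold change 2.11, SE 0.09, adjusted p = 2.95e-12). Fabp5 rose from 126 ± 7.16 to 383 ± 61 CPM (log2 fold change 1.61, adjusted p = 6.41e-10). Pdpn, podoplanin, rose from 29.2 ± 1.64 to 239 ± 18.5 CPM (log2 fold change 3.03, adjusted p = 3.97e-14). Syngr1 rose from 0.977 ± 0.148 to 23.7 ± 3.28 CPM (log2 fold change 4.58, adjusted p = 3.97e-13), though it overlaps a gene whose coordinates changed between the tables. Gpnmb was at 298, 298 and 287 CPM after PBS and 497, 384 and 267 CPM at day 14, with overlapping groups (log2 fold change 0.38, adjusted p = 0.0828), and was called higher by DESeq2 and without day 14 replicate 3. The tetraspanin gene Cd9 and Lgals3, galectin-3, were lower, from 2777 ± 143 to 2219 ± 245 CPM (log2 fold change -0.32, adjusted p = 0.00289) and from 1622 ± 29.4 to 1303 ± 214 CPM (log2 fold change -0.32, adjusted p = 0.00861).

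Genes for making cholesterol were higher along nearly the whole chain. Of 23 tested genes for cholesterol and fatty acid synthesis, 20 were called higher and 0 lower, with a median of 1.31. Of the other 7 genes of this list, 1 was not tested and 6 lay outside the autosomal genes with unchanged coordinates. In the same fit Hmgcs1, Fdft1, Nsdhl, Srebf2 and Scd2 (of which Fdft1 separates the tables) rose by 1.15, 1.08, 1.38, 0.79 and 1.55 on the log2 scale, whereas Scd1, a fatty acid desaturase, fell from 103 ± 7.58 to 20.3 ± 2.66 CPM (adjusted p = 5.28e-12). The mevalonate steps Mvk, Pmvk, Mvd and Idi1 rose by 1.66, 1.36, 1.01 and 1.78 on the log2 scale, where Mvk also separates the tables and Idi1 overlaps a gene with changed coordinates. Sqle, which makes the first oxygenated sterol precursor, was at 26.7, 31.5 and 29.6 CPM after PBS and 104, 137 and 125 CPM at day 14, and no libraries overlapped (fitted log2 fold change 2.06, SE 0.10, adjusted p = 4.27e-11). Lss, Cyp51, Msmo1, Hsd17b7, Sc5d and Dhcr7, the later enzymes, rose by 1.12, 1.41, 1.5, 1.51, 1.56 and 0.88 on the log2 scale. Insig1, which holds the pathway in check, rose from 138 ± 5.75 to 287 ± 40.1 CPM (log2 fold change 1.05, adjusted p = 5.27e-08). The fatty acid genes moved less: Acly rose by 0.46 and Fasn by 0.65, the latter not called without day 14 replicate 2, while Acaca and Elovl6 were at 0.18 and -0.54 and were not called (adjusted p = 0.202 and 0.0681), nor was the regulator Srebf1 (log2 fold change -0.08, adjusted p = 0.441). Elovl6 was called lower by DESeq2, without the low-count filter, with all 24 libraries in the fit and without day 14 replicate 2, and Acaca was called higher without day 14 replicate 1.

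**Figure D4:**
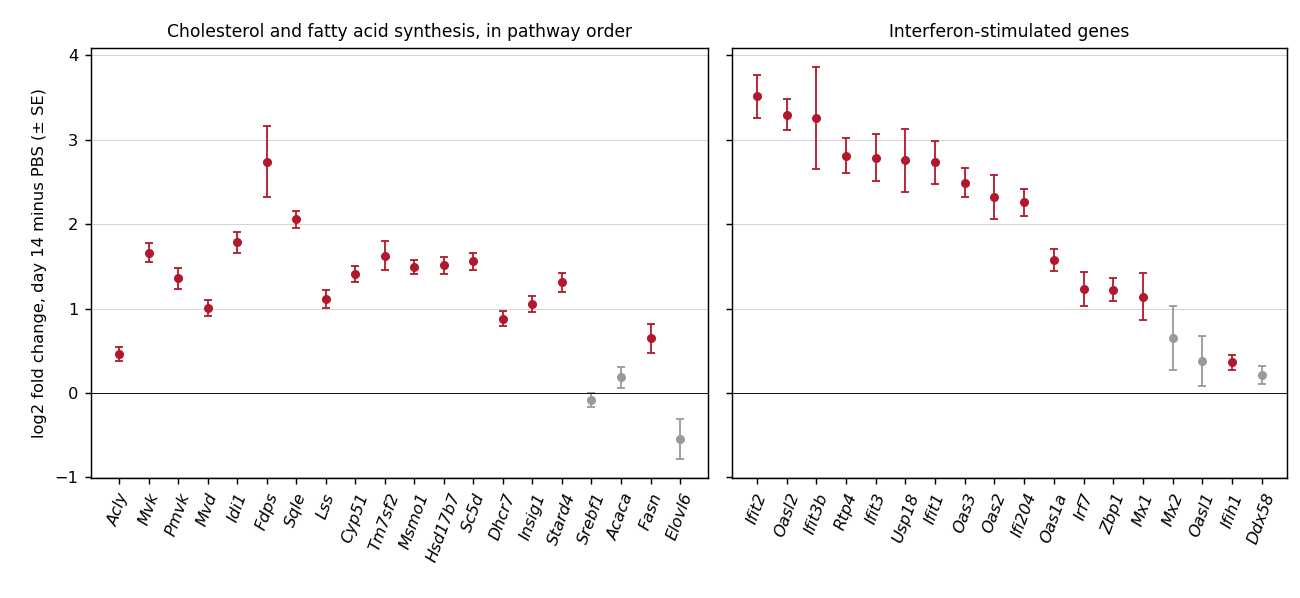
Log2 fold change (day 14 minus PBS, ± SE of the fit of 9 libraries, 3 a group with day 30 included) of 20 genes for cholesterol and fatty acid synthesis, ordered along the pathway, and of 18 interferon-stimulated genes, ordered by size. Red marks called genes and grey marks genes not called: 17 of 20 and 15 of 18 are called higher, and none is called lower.

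Interferon-stimulated genes were higher as well, mostly from low levels. Of 19 tested, 15 were called higher and 0 lower, with a median of 2.26. These genes are switched on by type I interferon through transcription factors that bind the interferon-stimulated response element. Oasl2 was at 2.33, 1.68 and 2.51 CPM after PBS and 16.9, 21.2 and 25.5 CPM at day 14 (fitted log2 fold change 3.30, SE 0.18, adjusted p = 1.6e-10). Ifit2 rose from 0.863 ± 0.320 to 9.68 ± 2.26 CPM (log2 fold change 3.51, adjusted p = 6.07e-09). Rtp4 rose from 1.41 ± 0.197 to 9.87 ± 1.16 CPM (log2 fold change 2.81, adjusted p = 6.19e-09), though it overlaps a gene with changed coordinates. Oas1a, an RNA-sensing synthetase, rose from 17.4 ± 1.64 to 52 ± 11.1 CPM (log2 fold change 1.58, adjusted p = 2.22e-08). Ifi204, a DNA sensor, rose from 20.9 ± 4.75 to 99.3 ± 19.3 CPM (log2 fold change 2.26, adjusted p = 1.48e-07). Irf7, which amplifies the response, rose from 12.8 ± 2.63 to 29.9 ± 9.37 CPM (log2 fold change 1.23, adjusted p = 0.000187). The RNA sensor gene Ddx58 was at 29.6 ± 0.820 CPM after PBS and 34.3 ± 4.56 CPM at day 14 and was not called (adjusted p = 0.11). Without day 14 replicate 1 it was called higher.

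Promoter windows were available for 11 of the 19 interferon-stimulated genes, from 250 bases before to 50 bases after each start, from RefSeq on GRCm38.p6. The core of the response element, GAAANNGAAA on either strand, was present in 7 of these 11 genes, against 3.44% of all 32851 windows (1131). Of the 7 genes with the element 6 were called higher, beside 9 of the 11 with a window. The windows of Ifit1, Ifit3, Oas1a and Oas3 are shown because these genes rose and carry the element; capitals mark every match, where overlapping matches run together. The window of Ifit1 lies at chr19:34640639-34640938, plus strand, that of Ifit3 at chr19:34583279-34583578, plus strand, that of Oas1a at chr5:120907476-120907775, minus strand, and that of Oas3 at chr5:120777610-120777909, minus strand.
Ifit1: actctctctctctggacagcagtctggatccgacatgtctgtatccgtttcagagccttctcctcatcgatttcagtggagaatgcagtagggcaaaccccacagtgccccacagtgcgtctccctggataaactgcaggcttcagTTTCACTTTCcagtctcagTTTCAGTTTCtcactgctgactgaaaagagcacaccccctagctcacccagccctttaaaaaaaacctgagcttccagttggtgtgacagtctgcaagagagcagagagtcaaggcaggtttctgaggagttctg
Ifit3: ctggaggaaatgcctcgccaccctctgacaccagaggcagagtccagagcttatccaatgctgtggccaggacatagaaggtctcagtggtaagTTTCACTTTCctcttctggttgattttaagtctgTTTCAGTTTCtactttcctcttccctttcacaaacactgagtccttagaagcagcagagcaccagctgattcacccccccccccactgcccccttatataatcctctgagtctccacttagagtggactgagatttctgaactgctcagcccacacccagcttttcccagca
Oas1a: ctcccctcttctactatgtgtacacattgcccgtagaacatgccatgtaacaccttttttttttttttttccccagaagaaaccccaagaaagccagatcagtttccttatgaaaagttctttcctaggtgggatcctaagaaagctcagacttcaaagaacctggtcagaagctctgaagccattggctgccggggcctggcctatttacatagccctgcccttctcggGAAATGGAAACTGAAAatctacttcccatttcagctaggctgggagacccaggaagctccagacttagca
Oas3: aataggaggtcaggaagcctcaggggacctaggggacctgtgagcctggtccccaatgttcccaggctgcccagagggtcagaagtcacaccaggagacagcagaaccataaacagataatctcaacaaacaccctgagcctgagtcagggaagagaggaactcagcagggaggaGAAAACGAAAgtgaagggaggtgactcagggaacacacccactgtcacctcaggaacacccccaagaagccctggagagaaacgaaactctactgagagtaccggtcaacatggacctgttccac
The levels of these 4 genes went from 1.08 ± 0.0198 to 7.22 ± 1.56 CPM for Ifit1, from 1.02 ± 0.195 to 6.98 ± 2.18 CPM for Ifit3, from 17.4 ± 1.64 to 52 ± 11.1 CPM for Oas1a and from 2.87 ± 0.508 to 16 ± 2.88 CPM for Oas3. Ifit3 and its neighbour Ifit3b are near-identical and reads may be split between them. A match describes the sequence and is not a measured binding site. The sterol response element core TCACNCCAC was in none of the windows of 17 cholesterol and fatty acid genes, against 1.24% of all windows (408), which says only that these letters are not in those windows.

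Lysosomal genes were higher by small factors. Of 22 hydrolases and membrane proteins tested, 19 were called higher and 0 lower, with a median of 0.48, but 9 of the 19 also separate the tables. Ctsd, cathepsin D, does not separate them and was at 3108, 3231 and 3104 CPM after PBS and 5951, 4773 and 5363 CPM at day 14 (fitted log2 fold change 0.77, SE 0.08, adjusted p = 6.58e-07). Lgmn, legumain, rose from 193 ± 3.01 to 671 ± 97.7 CPM (fitted log2 fold change 1.80, SE 0.09, adjusted p = 5.51e-11). Ctsk, a collagen-degrading protease, rose from 497 ± 19.5 to 1053 ± 339 CPM (log2 fold change 1.08, adjusted p = 0.000621). Ctss and Psap, among the most abundant transcripts of the cells, rose from 3004 ± 53.6 to 8616 ± 204 CPM and from 4606 ± 75.5 to 10437 ± 492 CPM, and both separate the tables. Of 16 genes of the proton pump and its regulators, 12 were called higher and 1 lower (0 lower without PBS replicate 1), with a median of 0.37. The largest difference, of Atp6v0c, from 24.7 ± 0.956 to 334 ± 40.7 CPM, separates the tables and overlaps a gene with changed coordinates. Atp6v1a, a pump subunit without either mark, rose from 218 ± 9.85 to 358 ± 22.8 CPM (log2 fold change 0.72, adjusted p = 4.32e-07). The lysosomal gene element TCACGTG, bound by TFEB and its relatives, was searched on either strand and was in the windows of 6 of 19 hydrolase genes and 4 of 12 pump genes, against 3.77% of all windows (1237). Of the genes with the element, 6 of 6 hydrolase genes and 2 of 4 pump genes were called higher, beside 16 of 19 and 9 of 12 of all those with a window. Ctsd and Atp6v1a are shown because they rose, carry the element and do not separate the tables; the window of Ctsd lies at chr7:142387778-142388077, minus strand, and that of Atp6v1a at chr16:44139210-44139509, minus strand, and capitals mark the element.
Ctsd: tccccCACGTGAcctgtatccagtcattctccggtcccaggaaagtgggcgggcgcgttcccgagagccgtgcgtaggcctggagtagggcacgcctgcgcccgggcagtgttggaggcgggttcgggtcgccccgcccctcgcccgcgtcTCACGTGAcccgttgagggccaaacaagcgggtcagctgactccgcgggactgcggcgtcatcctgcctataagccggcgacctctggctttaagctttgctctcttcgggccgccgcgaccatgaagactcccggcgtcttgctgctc
Atp6v1a: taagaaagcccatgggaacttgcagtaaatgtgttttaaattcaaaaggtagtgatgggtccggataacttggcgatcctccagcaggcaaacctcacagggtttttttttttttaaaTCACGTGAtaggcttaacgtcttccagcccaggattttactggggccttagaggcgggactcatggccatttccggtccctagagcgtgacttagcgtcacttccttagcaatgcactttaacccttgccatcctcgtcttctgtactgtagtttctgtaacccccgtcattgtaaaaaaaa

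Genes for both main routes of energy supply were higher more often than lower. Of 20 genes for glycolysis and the response to low oxygen, 14 were called higher and 1 lower, with a median of 0.85. Eno1, enolase, rose from 361 ± 8 to 1031 ± 188 CPM (fitted log2 fold change 1.51, SE 0.10, adjusted p = 2.3e-09), and the glucose carrier Slc2a1 rose from 47.5 ± 3.10 to 116 ± 8.20 CPM (log2 fold change 1.29, adjusted p = 1.58e-09). The lower call was another glucose carrier gene, Slc2a3, which fell from 7.60 ± 1.22 to 2.45 ± 0.749 CPM (log2 fold change -1.63, adjusted p = 3.5e-06). Gapdh, a middle enzyme of the route, was at 27.4 ± 0.528 CPM after PBS and 13.8 ± 0.354 CPM at day 14 and was not called (log2 fold change -0.99, adjusted p = 0.305), but was called lower when only the 2 groups compared entered the fit. Its 2 groups did not overlap, and the day 30 libraries that share the estimate of spread were at 54, 9.47 and 7.67 CPM. The PBS level of Gapdh was far below the 361 CPM of Eno1, and whether its reads were lost to similar sequences was not tested. Hk2 and Ldha, the first and the last enzyme of the route to lactate, rose by 1.14 and 1.09 on the log2 scale (adjusted p = 4.05e-08 and 3.31e-08). Ldhb, the lactate dehydrogenase chain of oxidative tissues, was at 0.553, 0.991 and 0.769 CPM after PBS and 59.1, 64.6 and 101 CPM at day 14, among the largest rises of all (fitted log2 fold change 6.59, SE 0.26, adjusted p = 4.5e-10). Of 22 nuclear genes for oxidative phosphorylation, 19 were called higher and 0 lower, with a median of 0.53: Sdhb rose by 1.01 and Ndufb8 by 0.87, and 5 of the 19 separate the tables. The mitochondrially encoded genes, outside the autosomal set, summed to 10048 to 10880.4 CPM after PBS and 18067 to 18860.3 CPM at day 14. Of 19 antioxidant and iron genes 13 were called higher and 3 lower, with a median of 0.36. Slc7a11, the cystine importer, rose from 51.9 ± 3.56 to 167 ± 24.2 CPM (log2 fold change 1.68, adjusted p = 5.1e-07). Slc40a1, the iron exporter ferroportin, rose from 3.34 ± 0.406 to 11.6 ± 0.431 CPM (log2 fold change 1.79, adjusted p = 1.63e-07).

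Proliferation genes were mostly not called. Of 30 tested, 11 were called higher, 2 lower and 17 neither, with a median of 0.18. Mki67, the proliferation antigen Ki-67, was at 105, 110.3 and 96.9 CPM after PBS and 86.4, 128 and 98.5 CPM at day 14 and the groups overlapped (log2 fold change 0.01, adjusted p = 0.973). The mitotic cyclin genes Ccnb1 and Ccnb2 rose by 1.07 and 1.27 (adjusted p = 4.46e-06 and 6.91e-06), while E2f1, which starts the S phase programme, fell from 51.4 ± 1.32 to 30.6 ± 4.72 CPM (log2 fold change -0.75, adjusted p = 1.89e-05).

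Of 14 genes linked to alternative activation by interleukin-4, 5 were called higher and 3 lower, with a median of 0.40. Over all genes tested, 26.0% were called higher and 28.1% lower. Of 6 genes for class II antigen presentation and costimulation 3 were called higher and 2 lower (1 lower without PBS replicate 2), with a median of 0.38. The other 8 genes of that list were not tested or lay outside the autosomal genes with unchanged coordinates. Among them were the class II chain genes H2-Aa, H2-Ab1 and H2-Eb1, and Cd74 and Ciita, so the 6 do not describe the class II chains.

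Transcription factors of macrophages moved in both directions, 7 of 21 called higher and 8 lower, with a median of 0.01. Genes tested as a whole also did, with 26.0% called higher and 28.1% lower and a median of -0.03. Cebpb was at 1171, 1257 and 1295 CPM after PBS and 245, 279.7 and 215 CPM at day 14, and every day 14 library was far below (fitted log2 fold change -2.33, SE 0.09, adjusted p = 2.87e-12). Cebpb separates the tables. On the scale of CPM of all counts, the other groups of the day 14 table held 211 CPM (interstitial, day 14) and 1052 CPM (alveolar, day 30). Cebpa fell from 706 ± 33.6 to 395 ± 34 CPM (log2 fold change -0.84, adjusted p = 1.85e-07). Klf2 fell from 57.9 ± 3.86 to 22.2 ± 3.78 CPM (log2 fold change -1.39, adjusted p = 7.18e-08). Klf4 rose from 276 ± 3.35 to 516 ± 70.2 CPM (log2 fold change 0.90, adjusted p = 3.59e-07), as did Hif1a, the oxygen-sensitive factor, from 127 ± 2.05 to 238 ± 14.8 CPM (log2 fold change 0.91, adjusted p = 5.55e-08), which overlaps a gene with changed coordinates. Spi1, which encodes the myeloid factor PU.1, was at 451 ± 19 CPM after PBS and 428 ± 18.7 CPM at day 14 and was not called (log2 fold change -0.07, adjusted p = 0.386).

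Transcripts of B and plasma cells were far lower at day 14. Ighm, the heavy chain of immunoglobulin M (chr12:113418558-113422730), was at 636, 642 and 749 CPM after PBS and 13.7, 6.80 and 12.8 CPM at day 14 (fitted log2 fold change -5.92, SE 0.21, adjusted p = 1.36e-09). Igkc, the kappa light chain, was at 738, 704 and 798 CPM after PBS and 45.2, 33.8 and 33 CPM at day 14 (fitted log2 fold change -4.32, SE 0.16, adjusted p = 1.33e-10). All 9 B and plasma cell genes tested were lower, with no overlap between groups and a median of -4.20, and their summed level went from 1669 to 1911 CPM after PBS to 64 to 79.2 CPM at day 14 and 1176 to 1591 CPM at day 30. Pax5, which defines B cells, fell from 20.8 ± 1.77 to 0.932 ± 0.261 CPM (log2 fold change -4.47, adjusted p = 8.78e-12). Of 147 immunoglobulin gene segments tested, a class counted after the values were seen, 141 were called lower and 0 higher, and 50 had no count at day 14. They make up 140 of the 1420 genes called at least 2-fold lower. Their reads can be shared between near-identical segments. In bulk samples, fewer cells of a type and less RNA per cell cannot be told apart.

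Markers of other cells also moved with the groups. Neutrophil genes were called lower in 8 of 10 cases and higher in 1 (median -4.51). Their summed level was 127 to 197 CPM after PBS and 95.5 to 119 CPM at day 14. S100a9 fell from 33.5 ± 11.8 to 0.937 ± 0.477 CPM (log2 fold change -5.12, adjusted p = 3.21e-05). Mmp8 was the gene called higher, with log2 fold changes of 0.60 to 0.86 across the main fit and its alternatives. S100a8 was not called, with log2 fold changes of 0.43 to 1.04 across the same fits. DESeq2 and the fit with all 24 libraries called S100a8 higher. Epithelial genes were called lower in 7 of 10 cases and higher in 2 (median -3.74). Scgb1a1, the club cell secretory protein, fell from 48.8 ± 7.43 to 1.18 ± 0.394 CPM (log2 fold change -5.37, adjusted p = 2.25e-10). Sftpb, a surfactant protein, fell from 10.7 ± 0.699 to 0.225 ± 0.201 CPM (log2 fold change -5.57, adjusted p = 3.25e-08), while Hopx rose from 6.97 ± 1.72 to 40.7 ± 7.02 CPM (log2 fold change 2.56, adjusted p = 1.94e-09). The summed epithelial level was 223 to 229 CPM after PBS and 198 to 247 CPM at day 14, and Cdh1 and Napsa, which were not called lower, make up most of it. Dendritic cell genes were lower in 7 of 10 and higher in 0 (median -1.06, sum 61.1 to 79.7 CPM, then 30.5 to 37.6 CPM). Of 9 T cell genes 1 was called lower, rising to 5 without day 14 replicate 3, and of 4 NK cell genes edgeR and DESeq2 called 0, with 1 at an unadjusted p under 0.05. Without day 14 replicate 1 or 3, 1 NK cell gene was called lower. Without the low-count filter, the NK cell genes Eomes and Klrk1 and the T cell genes Trac, Lck and Trbc2 were called lower. Of 5 fibroblast genes edgeR and DESeq2 called 0, with 0 at an unadjusted p under 0.05 and 1 called lower without day 14 replicate 1, and their sum was 4.74 to 7.74 CPM and 3.55 to 7.55 CPM. Endothelial genes were lower in 4 of 6 and higher in 0, with 1 higher without day 14 replicate 1. Mast cell and basophil genes were lower in 3 of 3 (1 without PBS replicate 2), and erythroid and platelet genes in 2 of 3 (1 without PBS replicate 3, day 14 replicate 1 or day 14 replicate 2). Of 3 eosinophil genes 1 was called higher and 2 lower, and the higher call was lost without any 1 PBS library. Genes that respond to tissue dissociation were lower in 8 of 10 and higher in 1 (median -0.74), with the heat shock gene Hspa1a at 49.7 ± 1.01 CPM after PBS and 10.1 ± 1.45 CPM at day 14 (log2 fold change -2.29, adjusted p = 4.19e-12). The part of these cells and of handling in the other differences was not tested.

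**Figure D5:**
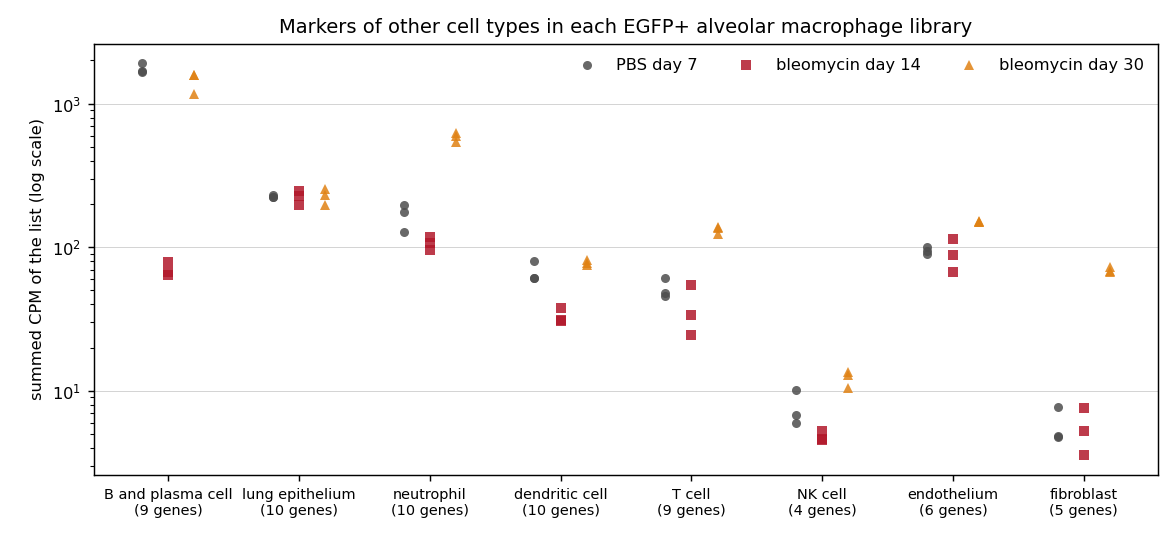
Summed CPM (log axis) of the marker genes of 8 other cell types in each EGFP+ alveolar macrophage library, 3 per group, with the number of genes under each name. The B and plasma cell sum is 64.0 to 79.2 CPM at day 14 against 1669 to 1911 CPM after PBS, while the epithelial, endothelial, T cell and fibroblast sums overlap.

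Among the 15 called genes with the largest rise, Nnmt, which methylates nicotinamide, had 1 count in all PBS libraries together and was at 9.42, 9.19 and 13.4 CPM at day 14 (adjusted p = 1.68e-11), and it separates the tables. Slc36a2, an amino acid carrier, rose from 0.572 ± 0.106 to 27.1 ± 2.24 CPM (log2 fold change 5.57, adjusted p = 5.54e-14). Fcna, ficolin A, rose from 0.471 ± 0.261 to 20.1 ± 3.47 CPM (log2 fold change 5.34, adjusted p = 2.1e-11) and separates the tables. Kcnk13, a potassium channel, rose from 0.562 ± 0.273 to 18.6 ± 1.98 CPM (log2 fold change 5.09, adjusted p = 7.58e-12). Trf, transferrin, was at 52.5, 54.4 and 56.4 CPM after PBS and 2519.8, 2441 and 2849.9 CPM at day 14 (fitted log2 fold change 5.58, SE 0.09, adjusted p = 4.26e-17), but it separates the tables and overlaps a gene with changed coordinates. On the scale of CPM of all counts, EGFP+ interstitial macrophages after bleomycin held 9.78 CPM of Trf at day 7, in the PBS table. They held 1348 CPM at day 14, in the day 14 table. Wild-type interstitial macrophages after PBS, sorted without an EGFP gate, held 20.6 CPM. Among the 15 with the largest fall, 8 are immunoglobulin segments. Hmcn1, a matrix protein, fell from 29.2 ± 0.718 to 0.195 ± 0.0809 CPM (fitted log2 fold change -7.17, SE 0.26, adjusted p = 6.82e-13). Slc1a3, a glutamate carrier, fell from 20.7 ± 0.318 to 0.319 ± 0.0905 CPM (fitted log2 fold change -6.00, SE 0.24, adjusted p = 2.52e-12). Esrrg, an orphan nuclear receptor, was at 9.44, 10.7 and 11.9 CPM after PBS and had no count at day 14, which makes it at least 145-fold lower against a floor of 3 counts over the group, though it overlaps a gene with changed coordinates. Chtf8, Rpl36al, Nnt and the gene ENSMUSG00000026276 also overlap such genes and fell by 5.95 to 10.40 on the log2 scale, and all 4 separate the tables. Chtf8, on the scale of CPM of all counts, was at 95.7 CPM in EGFP+ interstitial macrophages of bleomycin day 7 and 0.0718 CPM in those of day 14. Wild-type interstitial macrophages after PBS, sorted without an EGFP gate, held 82.6 CPM of Chtf8.

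The day 14 libraries spread more than the PBS libraries. Among genes at 10 CPM or more, the highest library was at least 2 times the lowest for 78 of 6836 genes (1.14%) at day 14 and for 20 of 6909 (0.289%) after PBS, and in 43 of the 78 day 14 replicate 1 lay farthest from the middle library. Marco, a scavenger receptor of alveolar macrophages, was at 246, 248 and 239 CPM after PBS and 742, 244 and 117 CPM at day 14 (log2 fold change 0.59, adjusted p = 0.459), and the first day 14 library stood alone above the PBS level. Ear6, a ribonuclease gene with near-identical relatives, was at 88, 17.9 and 6.79 CPM at day 14 and 1.82, 2.97 and 2.51 CPM after PBS (log2 fold change 3.94, adjusted p = 0.0167), and its call was lost without any 1 of the PBS libraries. Bnip3, a mitophagy gene, was at 13.6, 14.3 and 14 CPM after PBS and 56.5, 21.5 and 22.4 CPM at day 14 (log2 fold change 1.26, adjusted p = 0.0208), with the same library high, and lost its call without any 1 PBS library and without the low-count filter. Clec7a, the β-glucan receptor dectin-1, was lowest in that library among the 3, at 1557, 1521 and 1617 CPM after PBS and 2168, 2872 and 3477 CPM at day 14, and all 3 day 14 libraries remained above the PBS libraries (log2 fold change 0.86, adjusted p = 4.45e-05).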

How the data were processed

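Libraries were bulk RNA-seq of sorted lung macrophages. Per the submitters' processing notes, the authors used FastQC 0.11.5, Trimmomatic 0.38, HISAT2 2.1.0, SAMtools and featureCounts 1.6.3 on GRCm38, and deposited raw counts per gene in separate tables; the annotation release and strand setting are not given in the sources used here. The tables were joined by gene ID, and 3 count columns that match no sample were not used. The members and lists were chosen with earlier results of these data known.

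Counts of 9 EGFP+ alveolar macrophage libraries (PBS, day 14, day 30) were filtered with filterByExpr, scaled by TMM and fitted together with edgeR 4.0.16 (R 4.3.3, limma 3.58.1; robust quasi-likelihood). Day 30 entered to share the estimate of spread. P-values were adjusted by Benjamini-Hochberg over all 14706 genes tested, of which 11868 were autosomal with unchanged coordinates; the threshold was 0.05. The script was tested on simulated data. Alternatives were DESeq2 1.42.0, other scalings, filters, samples and gene sets, a replicate block, and each library left out.

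Named were Spp1, Siglecf and Itgam, 15 genes in each direction by fold and 10 by CPM difference (at least 10 CPM, groups apart), and 5 genes a list by p and 5 by level, plus members completing a pair, complex or chain. Other genes, among them Abca1, Bnip3, Car4, Ccr2, Cd163, Ctsk, Cx3cr1, Fcgr1, Folr2, Gapdh, Gpnmb, Hp, Ifit1, Ifit3, Irf7, Ly6c2, Lyve1, Marco, Osm, Pdgfa, Plac8, Pparg, Slc2a3, Timp2 and Tnf, were chosen after their values were seen. Some members of the lists are not reported here by name.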

Additional observations from a re-analysis of the deposited data

How the results depend on the processing

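The number of genes called was 6423, and ran from 5494 to 6591 when each library was left out in turn, with 6391 by DESeq2, 6425 with DESeq2-type size factors, 6724 without the low-count filter and 6763 with all 24 libraries in the fit. At least 2-fold differences were called for 2188 genes, and for 2053 to 2362 with a library left out. edgeR and DESeq2 called 6311 genes in the same direction. Of 352 list or named genes called, 316 kept the call under all 14 alternatives, 36 lost it under at least 1, and 0 reversed; of 117 not called, 55 were called under at least 1. Of 68 list counts, 51 stayed within 1.5 times throughout. The cause of the other changes was not tested. With the replicate number as a block 6229 genes were called. Across the genes of highest mean level, libraries of the same number correlated at 0.023, 0.295 and -0.067 in their deviations, and libraries of different numbers at -0.346 to 0.319. Deviations from a mean of 3 libraries are too few to decide whether the numbers pair the samples. With 3 libraries a group, low-count genes are measured least precisely.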
